A study of Mus musculus with 6 samples.

Results

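The MAP kinase cascade genes examined here are the 43 protein-coding mouse genes whose symbol is Mapk, Map2k, Map3k or Map4k followed by a number, of 21883 protein-coding genes on the primary chromosomes. They were chosen by symbol alone, and no measured value entered that choice. The set was proposed with earlier results of the same libraries known, so the values below describe these genes and support nothing beyond them. The set holds 13 Mapk, 7 Map2k, 18 Map3k and 5 Map4k genes. For each gene the deposited peaks of 5-hydroxymethylcytosine (5hmC), the base that TET enzymes make by oxidising 5-methylcytosine, were read over the RefSeq gene span with 5 kb added at both ends. The called length of a gene is the number of bases under peaks in that interval.

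The DNA came from Kit-enriched bone marrow cells of C57BL/6 mice that carried Tet2fl/fl and CreER, a Cre recombinase switched on by 4-hydroxytamoxifen (4-OHT). All cultures expressed AML1-ETO, a leukaemia fusion protein, from the retroviral vector MigR1-AE-IRES-GFP, and grew in SCF, IL-3 and IL-6. Cells called flox were given ethanol, and cells called KO were given 200 nM 4-OHT for 2 passages (4 days) and are labelled Tet2-/-. At passage 5, immature myeloid cells were sorted as positive for GFP and CD16/32 and negative for CD11b and Gr1, and 2 libraries per group were made by immunoprecipitation with an antibody to 5hmC. Only KO cultures received 4-OHT, so Tet2 loss, the drug and Cre activity cannot be told apart. The labels do not say whether the 2 libraries of a group came from separate cultures, so the spread between them may be technical. Marks in DNA give no expression, so the sorted cell type could not be checked against marker genes, and a change in the mix of cells cannot be told apart from a change per cell.

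MAP kinases work in relays. A MAP4K or a small GTPase switches on a MAP3K, which phosphorylates a MAP2K, which in turn phosphorylates a MAP kinase on a threonine and a tyrosine. The main routes end in the ERK kinases, which carry growth factor and cytokine signals, in the JNK and p38 kinases, which answer stress and inflammation, and in ERK5. In immature myeloid cells these routes link Kit, the IL-3 receptor and Ras to division and differentiation. In blood and other cells, 5hmC lies mostly in gene bodies and at enhancers, and little of it is found at the starts of CpG-rich genes.

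The starts of the cascade genes were mostly free of called 5hmC. RefSeq promoter windows (250 bases before to 50 after a start site, GRCm38.p6) were matched by symbol for 34 of the 43 genes, with 46 windows in all. In 39 of these windows no library had a called base, which was also the case for 86% of 21262 windows of all genes. The windows of 4 genes (8.70% of the 46) were called in all 4 libraries, against 5.28% of windows over all genes. These 4 were Map3k12, Map3k14, Map3k21 and Mapk13. Map3k12 encodes DLK, a stress kinase best known from neurons, and Map3k14 encodes NIK, the kinase of the non-canonical NF-kB route. Map3k21 encodes a mixed lineage kinase, and Mapk13 encodes p38 delta.

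The upstream bases of these 4 starts are shown because every library called bases in their window, and those of Map2k1, which encodes the ERK activator MEK1, because no library called its window. Each runs 5′ to 3′ on the gene's strand up to the start site or to the edge of the gene span. Capitals mark CG, the dinucleotide in which most 5hmC is found.
Map3k21, chr8:125910200-125910449, plus strand, 250 bases with 10 CG.
Map3k21: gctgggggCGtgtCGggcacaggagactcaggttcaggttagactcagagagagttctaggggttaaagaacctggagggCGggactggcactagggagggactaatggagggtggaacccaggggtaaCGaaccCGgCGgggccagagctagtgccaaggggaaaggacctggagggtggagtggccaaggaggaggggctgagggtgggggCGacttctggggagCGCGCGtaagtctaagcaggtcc
Map3k14, chr11:103267402-103267651, minus strand, 250 bases with 19 CG.
Map3k14: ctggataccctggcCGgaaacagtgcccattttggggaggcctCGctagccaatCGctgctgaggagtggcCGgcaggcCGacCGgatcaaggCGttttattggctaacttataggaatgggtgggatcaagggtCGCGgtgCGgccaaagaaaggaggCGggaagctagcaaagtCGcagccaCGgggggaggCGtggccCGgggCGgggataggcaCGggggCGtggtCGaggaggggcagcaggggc
Map3k12, chr15:102517005-102517254, minus strand, 250 bases with 17 CG.
Map3k12: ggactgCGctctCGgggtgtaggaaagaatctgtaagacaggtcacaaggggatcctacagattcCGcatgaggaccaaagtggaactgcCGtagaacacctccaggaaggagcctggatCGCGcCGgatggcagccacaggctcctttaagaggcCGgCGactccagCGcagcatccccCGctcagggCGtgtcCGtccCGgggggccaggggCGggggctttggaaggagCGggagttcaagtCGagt
Mapk13, chr17:28769067-28769285, plus strand, 219 bases with 20 CG.
Mapk13: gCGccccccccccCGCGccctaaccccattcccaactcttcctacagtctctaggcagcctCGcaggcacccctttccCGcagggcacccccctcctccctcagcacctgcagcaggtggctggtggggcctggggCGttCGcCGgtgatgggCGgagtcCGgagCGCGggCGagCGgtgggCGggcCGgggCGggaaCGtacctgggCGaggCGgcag
Map2k1, chr9:64253606-64253855, minus strand, 250 bases with 24 CG.
Map2k1: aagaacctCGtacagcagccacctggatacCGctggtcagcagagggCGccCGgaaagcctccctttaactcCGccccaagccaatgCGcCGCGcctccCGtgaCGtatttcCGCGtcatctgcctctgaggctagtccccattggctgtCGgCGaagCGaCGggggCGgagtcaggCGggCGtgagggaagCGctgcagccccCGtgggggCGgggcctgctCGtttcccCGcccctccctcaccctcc

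Over the full 250 upstream bases, CG occurred 25 times at Mapk13 and 24 times at the uncalled Map2k1. Among windows of cascade genes the median number of CG was 18 in those called in every library and 15 in those called in none. Over all genes, CG on either strand occurs in the 250 upstream bases of 93.4% of windows, with a median of 10. That median was 12 in windows called in every library and 9 in windows called in none. The peaks over the start of Map3k12 (region chr15:102515904-102517516, which also touches Tarbp2) scored 260 and 263 in the flox pair and 227 and 237 in the KO pair, in the authors' peak lists. Those over the start of Mapk13 (chr17:28768161-28770384) scored 199 and 210 in the flox pair and 168 and 147 in the KO pair. The peaks at the starts of Map3k14 and Map3k21 scored between 58.4 and 160. A score is the caller's value within its own library and depends on depth, so it describes peaks and is not compared between genotypes.

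A strong region also began at the start of Map2k2, which encodes MEK2, the partner of MEK1 (chr10:81105837-81108009). Its scores were 624 and 995 in the flox pair and 491 and 737 in the KO pair. Its peaks reached back into the promoter window only in flox replicate 1 (128 bases) and KO replicate 1 (41 bases). The highest score at any cascade gene was 1041, in flox replicate 1, in a region inside Mapk10, the JNK3 gene expressed mainly in neurons (chr5:103013567-103014663). That region was called in every library, with a lowest score of 691. Of the 75 constant regions (called in all 4 libraries) at cascade genes with an annotated start, 68.0% lay over 10 kb from it. Over all genes the share was 66.3%. That distance was taken to the nearest start of any protein-coding gene, so the shares are not like for like.

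**Figure D1:**
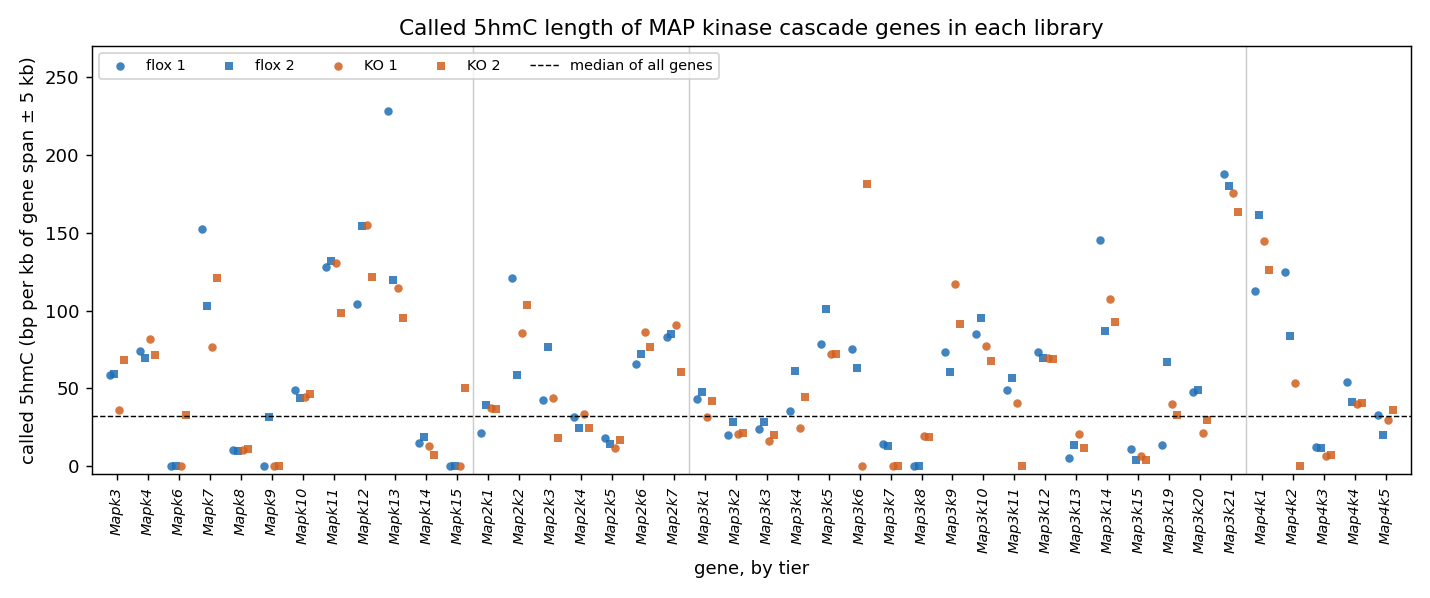
Called 5hmC length per kb of gene span plus 5 kb at both ends (y axis) for 42 of the 43 cascade genes (x axis, by tier), with blue points for flox and orange points for KO libraries, circles for replicate 1 and squares for replicate 2. The dashed line is the median of all genes, 32.3 bp per kb. Map3k21 stands at 177 bp per kb on average and Map3k15 at 6.30.

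Called 5hmC varied widely among cascade genes. Averaged over the 4 libraries, the level ran from 6.30 bp per kb in Map3k15 to 177 bp per kb in Map3k21, with a median of 41.4. Over all genes the median was 32.3 bp per kb and the quartiles were 4.59 and 69.8. The tier medians were 46.0 for Mapk, 45.0 for Map2k, 39.7 for Map3k and 44.0 bp per kb for Map4k genes. In all, 27 of the 43 genes lay above the median of all genes. The cascade genes are long, with a median span of 57.1 kb against 17.2 kb over all genes, and the intervals of 28 of them touch that of another gene, with which they can share peaks. Each of the 43 had a peak in at least 1 library, and 34 had a peak in every library.

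The gene densest in called 5hmC was Map3k21, at the 96.5th percentile of all genes. Its called length was 8822 and 8472 bp in the flox pair and 8247 and 7674 bp in the KO pair. All 4 libraries were close, with both KO values just under both flox values (log2 difference -0.10, SE 0.14, limma adjusted p = 0.934). It held 6 constant regions over its span of 36991 bp and the 5 kb at both ends. Among the other MAP3K genes Map3k14 came next at 108 bp per kb, with 8374 and 4996 bp in the flox pair and 6175 and 5354 bp in the KO pair. The KO values of Map3k14 lay between those of the 2 flox libraries.

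Of the MAP kinases, Mapk13 (139 bp per kb) and Mapk12 (134 bp per kb), both p38 kinase genes, were the densest. Mapk12 and Mapk11, a further p38 gene, are neighbours on chromosome 15, and their intervals share peaks, so their values are not independent. Mapk12 had 2191 and 3243 bp in the flox pair and 3252 and 2554 bp in the KO pair, and the genotypes overlapped. The remaining p38 gene, Mapk14, which is the form most widely expressed in blood cells, had only 13.6 bp per kb. Its single peak per library covered 1010 and 1272 bp in the flox pair and 884 and 483 bp in the KO pair, with both KO values below both flox values (log2 difference -0.48, SE 0.37, limma adjusted p = 0.869).

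At the end of the ERK route, Mapk3, the ERK1 gene, spans 6191 bp and stood at 55.3 bp per kb. It had 944 and 955 bp in the flox pair and 581 and 1100 bp in the KO pair, with overlap (log2 difference -0.13, SE 0.37). The near-equal flox lengths came from different places. A peak touched the gene span itself only in flox replicate 1 and KO replicate 2. The bases of flox replicate 2 and KO replicate 1 lay beside the span, under peaks that touch Gdpd3. Mapk7, the ERK5 gene, stood at 113 bp per kb. No peak touched its span, so this level came from the 5 kb added at both ends. Some of these peaks lay at the neighbouring gene Mfap4. The atypical kinase genes split, with Mapk4 at 74.2 bp per kb and 10 to 12 peaks in each library, and Mapk6 and Mapk15 with a single peak each, in KO replicate 2.

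The JNK genes also differed among themselves. Mapk10 spans 304058 bp and held 15300 and 13855 bp in the flox pair and 13983 and 14633 bp in the KO pair, with 13 constant regions, the most of any cascade gene. Its genotypes overlapped, and the log2 difference was -0.01 (SE 0.11). The broadly expressed genes Mapk8 and Mapk9 had 10.5 and 7.85 bp per kb. Mapk8 had exactly 1 peak in each library, of 798 to 882 bp, but these fell into 3 separate places, none of which was called in more than 2 libraries. Mapk9 had 2 peaks in flox replicate 2 and none in the other libraries.

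Among the MAP2K genes every one had at least 1 constant region. Map2k2 (92.1 bp per kb) and Map2k7, a JNK activator (79.7 bp per kb), were the densest. Map2k2 had 3476 and 1682 bp in the flox pair and 2463 and 2982 bp in the KO pair. Map2k7 had 1 peak in each library, with 1594 and 1624 bp in the flox pair and 1732 and 1156 bp in the KO pair. In both genes the genotypes overlapped. Map2k5, the ERK5 activator and the longest of the tier, was the sparsest at 15.1 bp per kb.

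Of the MAP4K genes, Map4k1 and Map4k2 were the densest. Map4k1 encodes HPK1, a kinase found mainly in blood cells, and stood at 136 bp per kb with 3522 and 5046 bp in the flox pair and 4514 and 3929 bp in the KO pair. The KO values again lay between the flox values (log2 difference 0.01, SE 0.24). Map4k2, the germinal centre kinase gene, had 65.4 bp per kb. Map4k3, a kinase that responds to nutrients and T cell receptor signals, had 9.29 bp per kb.

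**Figure D2:**
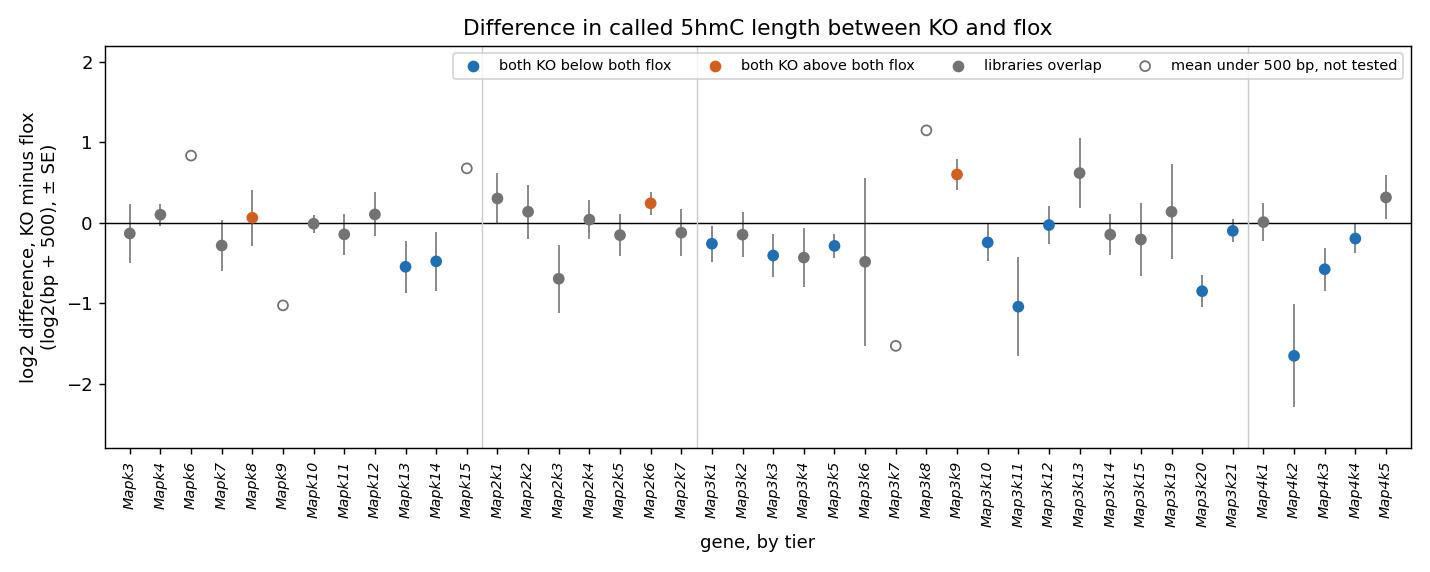
Difference in called length between KO and flox for 42 of the 43 cascade genes (y axis, log2(bp + 500) of values scaled to equal totals, with the SE from limma as bars), by tier on the x axis. Blue marks genes with both KO libraries below both flox libraries, orange the reverse, grey overlapping libraries and open circles the 5 genes under 500 bp. Most points lie within 1 unit of 0, with 13 blue and 3 orange points.

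Between genotypes, no cascade gene passed the test for called length. Lengths were scaled to the same total per library, and 500 bp was added before taking log2, a scale on which differences of sparsely covered genes come out too small. Limma was fitted to the 14159 genes whose mean reached 500 bp, and 0 of them had a Benjamini-Hochberg adjusted p under 0.05 (0% called). The lowest adjusted p of any cascade gene was 0.773. Of the 38 cascade genes tested, 3 (7.89%) had an unadjusted p under 0.05, against 6.14% of all genes tested. Map3k20 and Map4k2 were lower in KO, where the share over all genes was 4.3%, and Map3k9 was higher, where it was 1.84%.

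More cascade genes had less called length in KO than had more, as a description of a list chosen with results known. Of the 38 tested, 26 were lower in KO (68.4%) and 12 higher, against 54.6% lower over all genes. Their median log2 difference was -0.15, against -0.04 for all genes. In 14 of the 38 the higher KO library lay below the lower flox library (36.8%, against 20.7% of all genes tested), and in 3 the reverse held (7.89%, against 14.6%). With the untested genes these were 15 and 4 of 43, against 14.4% and 10.4% of all genes. The other 5 genes, Mapk6, Mapk9, Mapk15, Map3k7 and Map3k8, had a mean under 500 bp and were not tested. By number of peaks, with log2(peaks + 0.5), 18 of the 38 were lower, 11 higher and the rest level, with a median of 0.

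The count by tier was not tested. Of the tested genes, 13 of 16 Map3k, 7 of 10 Mapk, 3 of 5 Map4k and 3 of 7 Map2k genes were lower in KO. Their median log2 differences were -0.23, -0.14, -0.20 and 0.04. Pooled over a tier, Map3k genes had 51.2 ± 3.48 bp per kb in flox and 44.0 ± 1.34 in KO (SD, n = 2 each). Map4k genes had 39.6 ± 4.03 in flox and 32.7 ± 1.79 in KO, and Mapk genes 46.8 ± 0.41 and 43.2 ± 0.58. Map2k genes had 38.9 ± 0.07 in flox and 40.5 ± 2.05 in KO. Over the merged intervals of all 43 genes, the called length was 152591 and 156494 bp in the flox pair and 138713 and 139741 bp in the KO pair. As a share of each library's called length this was 0.135% and 0.142% in flox and 0.126% in both KO libraries. The share of called length over all gene intervals moved the same way, from 48.4% in both flox libraries to 47.2% and 46.8% in KO.

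The lower values with the smallest p were those of Map3k20, which encodes ZAK, a MAP3K that senses stalled ribosomes (chr2:72285637-72442610). It had 7950 and 8162 bp in the flox pair and 3570 and 4935 bp in the KO pair, in 9 and 9 against 4 and 5 peaks. Each KO value was far below the flox values, which were close to each other (log2 difference -0.85, SE 0.20, limma adjusted p = 0.773). The difference was -0.65 without KO replicate 1 and -1.05 without KO replicate 2. A flox-only region, meaning one called in each flox but no KO library, lay 2950 bp before the nearest start (chr2:72281629-72282687), with scores of 72.9 and 160. Another lay 17.6 kb into the gene (chr2:72303226-72303802), with scores of 153 and 116. The 3 constant regions of the gene lay 5.2, 24.8 and 127.5 kb into it, so the KO libraries kept peaks on either side of the second place.

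Map3k5 encodes ASK1, a MAP3K activated by oxidative stress (chr10:19934101-20142750), and had 3 flox-only regions, the most of any cascade gene. Its called length was 17218 and 22057 bp in the flox pair and 15740 and 15725 bp in the KO pair. The KO libraries agreed closely and lay below both flox libraries, of which replicate 2 was the higher (log2 difference -0.29, SE 0.15, limma adjusted p = 0.833). Without flox replicate 2 the difference was -0.09. The first flox-only region (chr10:19933806-19934374) spanned the 5′ end of the gene span and ended 152 bp before the annotated start site. The other 2 lay 155.9 and 186.4 kb into the gene, each in a stretch where several other peaks also differed between libraries. Scores in these 3 regions were 53.5 to 83.3, while the gene also had 11 constant regions.

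Map3k9, which encodes the mixed lineage kinase MLK1 (chr12:81714950-81781170), went the other way. It had 5595 and 4595 bp in the flox pair and 8905 and 6961 bp in the KO pair, with both KO values above both flox values (log2 difference 0.60, SE 0.20, limma adjusted p = 0.773). It carried 2 KO-only regions, at chr12:81757274-81758265 and chr12:81768326-81769498, with scores of 68.0 to 105. The extra peaks were weak ones. Restricted to peaks scored 100 or more the difference was 0.07, and on the top 50000 peaks per library by score it turned to -0.18.

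**Figure D3:**
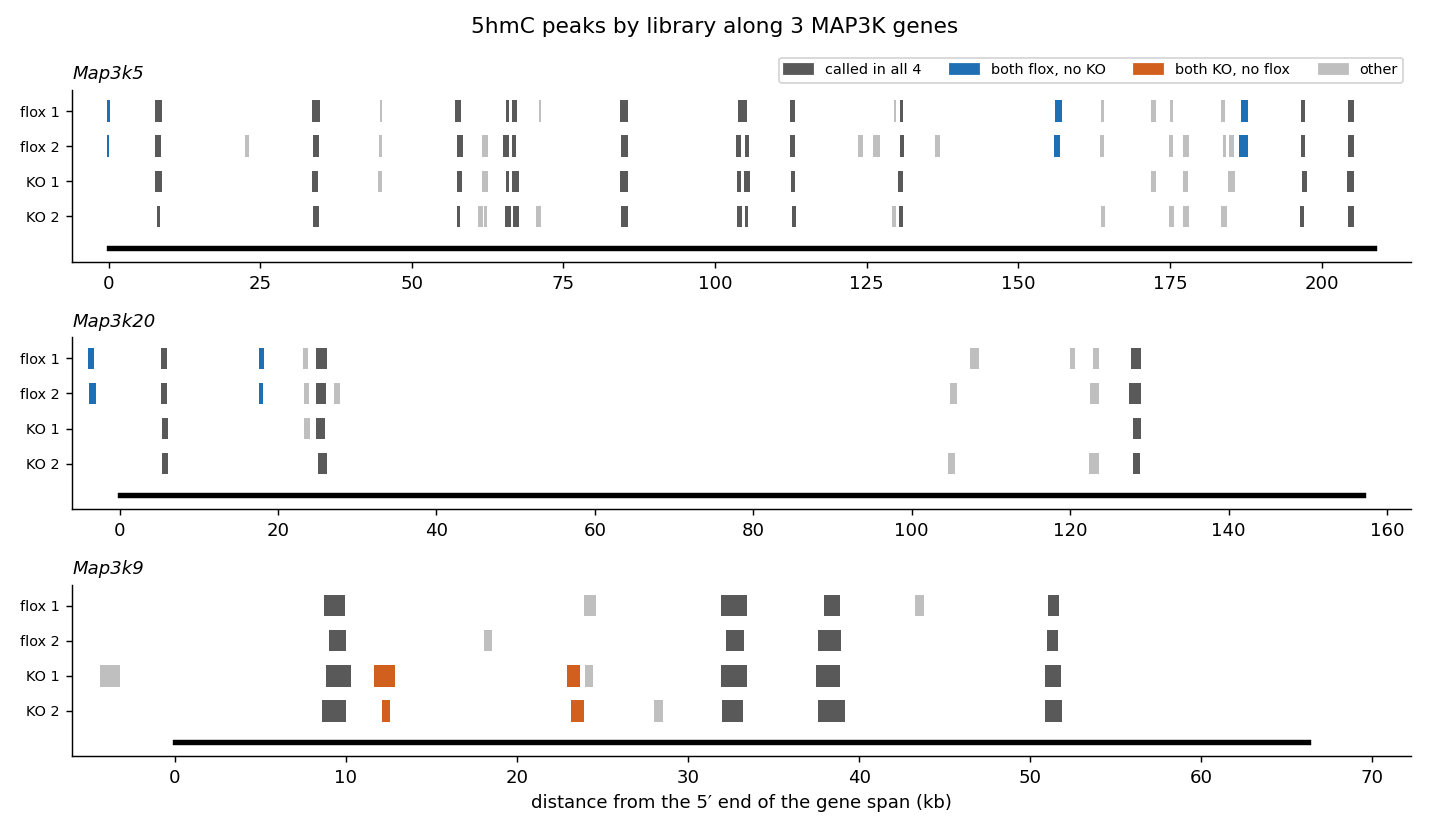
Deposited peaks of each library (rows) along Map3k5, Map3k20 and Map3k9, drawn by distance in kb from the 5′ end of the gene span (x axis), with the span as a black line. Dark grey peaks belong to regions called in all 4 libraries, blue to flox-only, orange to KO-only and light grey to other regions. The first blue region of both Map3k5 and Map3k20 lies before every region shared by all 4 libraries, and the other blue and orange regions lie between such regions.

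At Map4k2 (chr19:6340990-6355619) called length was 3076 and 2054 bp in the flox pair and 1316 and 0 bp in the KO pair, in 4 and 2 against 1 and 0 peaks. The libraries of the 2 genotypes did not overlap (log2 difference -1.65, SE 0.64, limma adjusted p = 0.807). A peak of flox replicate 1 also lay at the neighbouring gene Men1. The size rests on the library with no peak, since the difference was -0.72 without KO replicate 2 and -2.59 without KO replicate 1. A flox-only region lay 1695 bp into the gene from the start site (chr19:6342855-6344083), with scores of 57.8 and 56.6. Map4k3 had 1909 and 1825 bp in the flox pair and 1044 and 1106 bp in the KO pair, with 2 peaks in each flox and 1 in each KO library (log2 difference -0.58, SE 0.27, limma adjusted p = 0.824). The replicates of Map4k3 were close in length within each genotype, and leaving out any library kept the difference between -0.60 and -0.55. The flox libraries shared only the peak at the constant region, with 1258 and 1284 bp against 1044 and 1106 bp in the KO pair. Their further peaks lay in different places, with 651 bp at chr17:80704173-80704823 in flox replicate 1 and 541 bp at chr17:80687366-80687906 in flox replicate 2.

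At 2 other genes with separated genotypes the size rested on 1 library. Map3k11, the gene of the mixed lineage kinase MLK3, had 1198 and 1393 bp in the flox pair and 996 and 0 bp in the KO pair. These bases all lay downstream of the gene span, in a region that touches Kcnk7 (chr19:5703696-5705121). The difference of -1.04 (SE 0.62) for the Map3k11 interval was -0.25 without KO replicate 2. Mapk13 had 4435 and 2319 bp in the flox pair and 2225 and 1852 bp in the KO pair. Its difference of -0.55 (SE 0.32) was -0.16 without flox replicate 1. Further genes with both KO below both flox were Map3k1, Map3k3, Map3k10, Map3k12 and Map4k4, with differences of -0.41 to -0.03. On the higher side, besides Map3k9, stood Map2k6, a p38 activator, with 8940 and 9869 bp in the flox pair and 11763 and 10470 bp in the KO pair (0.24, SE 0.15), and Mapk8 (0.06, SE 0.35).

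Regions of 1 genotype alone were few at cascade genes, and none lay at a Mapk gene. Merging the peaks of the 4 lists gave 232 regions at these genes, of which 91 (39.2%) were constant, against 40.5% over all genes. There were 10 flox-only and 7 KO-only regions. Flox-only regions touched 7 of the 43 genes (16.3%, against 10.8% of all genes) and KO-only regions 6 (14.0%, against 8.71%). Per Mb of merged intervals, which takes gene length into account, cascade genes had 2.96 flox-only and 2.07 KO-only regions, and all genes had 2.22 and 1.90. Constant regions were found at 31 of the 43 genes (72.1%, against 54.2% of all genes). Per Mb they were no denser, with 26.9 at cascade genes and 28.0 at all genes.

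**Figure D4:**
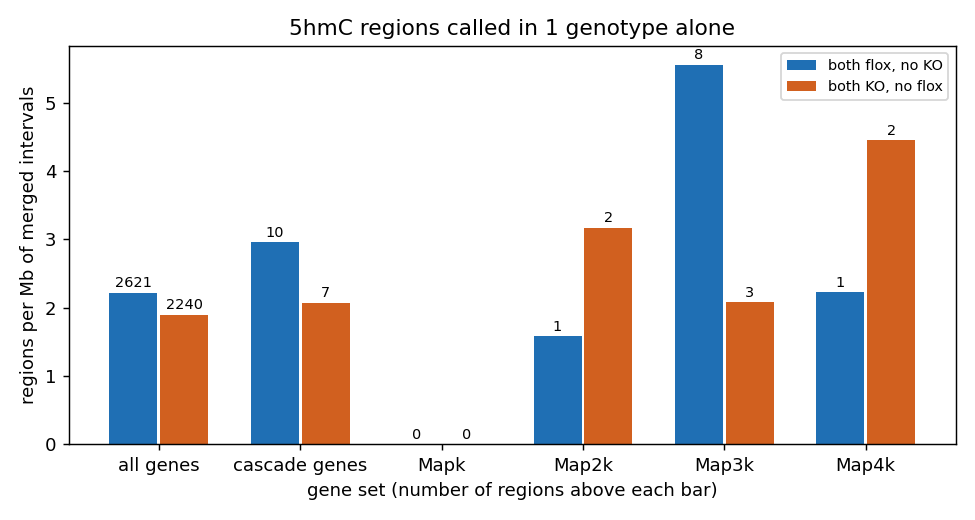
Flox-only (blue) and KO-only (orange) regions per Mb of merged gene intervals (y axis) for all genes, all cascade genes and each tier (x axis), with the number of regions above each bar. The Map3k tier holds 8 of the 10 flox-only regions, and the Mapk tier has neither kind.

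By tier, the 18 Map3k genes held 8 flox-only and 3 KO-only regions among 111. The 13 Mapk genes held neither kind among 58 regions, although 27 of those were constant. The Map2k genes had 1 flox-only and 2 KO-only regions among 36, and the Map4k genes 1 and 2 among 27. These counts were not tested. Of the 17 regions, 15 lay inside the gene span or touched it. The 2 outside were the one before Map3k20 and one at Map3k7. Their scores were low, with a median of 66.8 for flox-only and 68.6 for KO-only peaks against 139 for peaks in constant regions. Peaks in the 124 regions that were neither constant, flox-only nor KO-only had a median of 69.2.

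Map3k7 and Map3k8 each had called 5hmC in 1 genotype alone. Map3k7 encodes TAK1, which links cytokine and Toll-like receptors to NF-kB and JNK. It had 989 and 910 bp in the flox pair and no peak in KO, all in a region downstream of the gene (chr4:32026732-32027950). Map3k8 encodes TPL2, the MAP3K that couples Toll-like receptors to MEK1. It had no peak in flox and 614 and 599 bp in the KO pair, in a region inside the gene (chr18:4351314-4352117). Scores at both were between 57.6 and 75.5, near the lowest score in the lists (50), so weaker signal below that limit cannot be seen in the other genotype.

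The remaining regions of 1 genotype were single ones in the bodies of 7 genes. Flox-only regions lay in Map3k4, an activator of p38 and JNK (chr17:12279387-12280642), in Map3k10, the MLK2 gene (chr7:27663134-27663980), and near the 3′ end of Map2k5 (chr9:63168934-63169869). Map3k4 had 3603 and 6181 bp in the flox pair and 2456 and 4511 bp in the KO pair, with overlap (log2 difference -0.43, SE 0.37). Leaving out KO replicate 1 gave -0.056 and leaving out flox replicate 2 gave -0.063, while dropping KO replicate 2 gave -0.81 and dropping flox replicate 1 gave -0.80. The difference was -1.51 on the top 50000 peaks per library by score. Map3k10 had 2391 and 2684 bp against 2181 and 1911 bp (-0.24, SE 0.24). Map2k5 had 4092 and 3222 bp against 2593 and 3894 bp (-0.15, SE 0.26). KO-only regions lay in Map2k1 (chr9:64201365-64202608), Map2k6 (chr11:110463283-110464376) and Map4k1 (chr7:28987270-28988238), and a further one in Map4k5 (chr12:69878436-69879646). Map2k1 had 1659 and 3049 bp in the flox pair and 2906 and 2872 bp in the KO pair, and flox replicate 1 was the low library (0.30, SE 0.31, and -0.07 without flox replicate 1). Map4k5, a kinase of the germinal centre kinase group, had 3254 and 1970 bp in the flox pair and 2975 and 3563 bp in the KO pair (0.32, SE 0.27, and 0.03 without flox replicate 2).

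Cascade genes without a distinguishing pattern were the other members of each tier. Map2k3, Map2k4, Map3k2, Map3k6, Map3k13, Map3k15 and Map3k19 had overlapping genotypes, as did Mapk7, Mapk11 and Mapk3. Map3k6, the ASK2 gene, was uneven between the KO libraries, with 1885 and 1578 bp in the flox pair but 0 and 4518 bp in the KO pair. Over all cascade genes, pairs of libraries within a genotype did not share clearly more called bases than pairs across genotypes. The Jaccard index, shared over total called bases, was 0.482 for the flox pair, 0.524 for the KO pair and 0.469 to 0.519 for pairs across genotypes. Over all gene intervals it was 0.498 to 0.514 for all pairs.

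Genes of the same pathway outside the symbol rule gave a similar mix. Of 67 listed genes 47 had enough called length to be tested, none passed (limma, adjusted p), and 29 were lower and 18 higher in KO, with a median log2 difference of -0.21. Over all genes tested, 54.6% were lower. The genotypes were separated with KO below in 14 of the 47 and with KO above in 4, against 20.7% and 14.6% of all genes tested. At the Ras step, which feeds the ERK route, 10 of 11 tested genes were lower (median -0.37). Phosphatases that switch MAP kinases off were lower in 2 of 6 (median 0.09), scaffolds and adaptors in 3 of 6 (0.02) and kinases activated by MAP kinases in 6 of 10 (-0.15). Downstream transcription factors were lower in 4 of 5 tested (-0.26), and kinases of the same tiers with other symbols in 4 of 9 (0.05).

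Among the tested genes of these lists with separated genotypes, the largest negative differences were at Grb2, the adaptor that brings the Ras activator SOS to receptors, and Dusp6, an ERK phosphatase. Grb2 had 4819 and 7846 bp in the flox pair and 1981 and 3035 bp in the KO pair, and 1 flox-only region (log2 difference -1.16, SE 0.32, limma adjusted p = 0.773). Dusp6 had 1236 and 1274 bp in the flox pair and 0 and 1025 bp in the KO pair, so that 1 KO library set its value (-1.002, SE 0.62, limma adjusted p = 0.852). The 2 largest positive ones were at Mef2c, a transcription factor activated by p38 and ERK5 (0.25, SE 0.19), and Spred2, an inhibitor of the Ras route (0.25, SE 0.21). Mef2c had 4777 and 3885 bp in the flox pair and 4991 and 5327 bp in the KO pair, yet 1 flox-only region and no KO-only region. Spred2 had 3975 and 3657 bp in the flox pair and 3930 and 5297 bp in the KO pair, separated only after scaling, with 3 KO-only regions and 1 flox-only region. Besides Grb2, only Rasgrp3, a Ras activator, had an unadjusted p under 0.05 among the 47 (-0.66, limma adjusted p = 0.773), and it was chosen after its values were seen. That makes 2 of 47, against 6.14% of all genes tested.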

How the data were processed

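Peak lists of 4 libraries, 2 flox and 2 KO, were used, grouped by sample title. IgG and input libraries were not analysed here. Per the submitters' processing notes, CASAVA 1.8, Bowtie, MACS 1.4 and the build GRCm38 (mm10) were used. Not given in the sources used here were their roles, their settings and the read depth. Each peak has a deposited score and a deposited p-value, the authors' own values within that library, and the lowest score was 50. The lists held 116539 to 122101 peaks covering 110 to 113 Mb. Peaks were listed for each library on its own, so a shift of 5hmC everywhere need not change them.

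Called length per gene (span plus 5 kb at both ends, RefSeq GRCm38.p6) was scaled to equal totals. Genes averaging 500 bp or more entered limma 3.58.1 under R 4.3.3 (trend, robust, Benjamini-Hochberg) as log2(bp + 500), after the fit had been tested on simulated data. Values printed in bp are unscaled. Regions were peaks of the 4 lists merged at 1 bp of overlap, counted from 1. Strand and start sites came from the promoter table. Of the cascade genes, 9 had no entry there, among them Mapk3, Mapk4, Mapk15, Map3k2, Map3k8, Map3k15, Map3k19 and Map4k4. Values of 1 cascade gene are not reported here, though it stays in the counts. Shared bases used bedtools 2.31.1, and Python 3.11.15, pandas 2.3.3, numpy 2.4.6 and matplotlib 3.10.9 were used. Fully described were the 2 densest genes per tier, up to 6 genes per direction with separated genotypes and the largest differences, and genes with regions of 1 genotype, and 2 pathway genes per direction. Lengths of Mapk3, Mapk10, Mapk14 and Map3k6 were printed in addition. The members and lists were chosen with earlier results of these data known. Alternatives were score limits, pseudocounts, filters, intervals, merging rules, scaling, peak numbers, a block for replicate number and leaving out single libraries, and centring on the median gene was added after seeing the data.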

Additional observations from a re-analysis of the deposited data

How the results depend on the processing

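The count of 0 genes past limma's adjusted p of 0.05 held under every alternative for called length, the replicate block included (0 genes). The exception was the number of peaks, which gave 700 calls. All 700 had equal peak numbers within both genotypes and so no spread, and among cascade genes this called Map4k3 (-0.74, limma adjusted p = 4.99e-05). An unadjusted p under 0.05 was reached by 869 genes with called length. The numbers were not taken as pairs, because the labels do not say that equal numbers share a culture. Same-numbered libraries did not deviate together (correlation 0.01 over 14159 genes, not replicates). The count of cascade genes lower in KO was 13 of 22 when a mean of 2000 bp was required, against 26 of 38 at 500 bp. Fewer genes were then tested and a smaller share of them was lower, for a reason that was not tested. The count was 27 of 40 without KO replicate 1 and 26 of 40 without KO replicate 2. It was 28 of 39 without flox replicate 1 and 26 of 37 without flox replicate 2. The median log2 difference of the tested cascade genes was -0.15. It became -0.31 with the 50000 highest scored peaks, -0.064 when a mean of 2000 bp was required and -0.091 with 2000 bp added before log2. It was -0.18 with 20 kb at both ends, -0.087 centred on the median gene and 0 by number of peaks. Leaving out each library gave -0.16 to -0.11.

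Flox-only and KO-only regions were 5 and 3 with scores of at least 100, and 5 and 1 with the 50000 highest scored peaks. With a library left out they were 18 to 37 and 15 to 19, because a single library then suffices for a genotype. Alternatives were followed gene by gene only for the tested cascade genes that were fully described. Mapk3, Mapk10, Mapk14 and Map3k6, whose lengths are also given above, were not followed. Among the genes followed, signs turned at differences no larger than 0.32 in size, besides Map3k9 (0.60, and -0.18 with the 50000 highest scored peaks). With the 50000 highest scored peaks and with scores of at least 100, Mapk12 stood at -0.44 and -0.47, Map2k2 at -0.10 and -0.13, Map3k14 at 0.19 and 0.35, Map3k21 at 0.28 and 0.25 and Map4k1 at -0.31 and -0.34. With scores of at least 100 Map4k5 was at -0.0065. With 20 kb added Map2k2 was at -0.22 and Map4k1 at -0.25, Map4k1 was at -0.0032 unscaled, and Map2k5 was at 0.039 over the span alone. With each library left out, differences ran from -0.15 to 0.36 in Mapk12, -0.071 to 0.68 in Map2k1, -0.28 to 0.55 in Map2k2, -0.40 to 0.10 in Map2k5, -0.34 to 0.10 in Map2k7, -0.47 to 0.18 in Map3k14 and -0.24 to 0.26 in Map4k1. The cause of these changes was not tested.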
